A study of Homo sapiens with 2 samples.

Results

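The numbered ZNF genes of chromosome 19 are the largest gathering of zinc finger genes on a human chromosome. They were taken here as the protein-coding RefSeq genes whose symbol is ZNF followed by a number, with at most 1 letter after it. This gave 246 of the 1451 protein-coding genes of the chromosome, and of 19974 on chromosomes 1 to 22 and X. The sites of LDB1 were mapped at them by CUT&Tag, which cuts and tags DNA beside an antibody's target with a tethered transposase. The cells were untreated NB4, a human acute promyelocytic leukaemia line that carries PML::RARA. There was 1 library with an antibody to LDB1 and 1 with IgG. The peak list of the LDB1 library was used, and the IgG library was not analysed here. A peak list carries no expression, so the cell type could not be checked against markers. No value below has a replicate, and intervals in parentheses are exact 95% intervals that cover counting error only.

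Most ZNF genes encode proteins that read DNA through a row of zinc fingers, and many of those on this chromosome also carry a KRAB domain. That domain recruits TRIM28, which brings the histone methyltransferase SETDB1 and HP1 proteins and silences retrotransposons and other targets. The genes arose by repeated tandem duplication, so neighbours often resemble each other, and they lie in runs with few other genes between them. LDB1 has no DNA-binding domain of its own. It dimerises and reaches DNA through partners, among them LMO proteins with GATA factors or with factors of the basic helix-loop-helix family.

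The upstream sequences of 6 ZNF genes are printed as examples, chosen by peak width or by gene length without a peak. Each is the 250 bases before the RefSeq start (GRCh38.p14), read 5′ to 3′ along the gene's strand, with CG dinucleotides in capitals. The first set holds the 3 genes with the widest LDB1 peak at the start, among genes whose listed start is the 5′ end of the gene and whose window lies in no other protein-coding gene. ZNF83 lies on the minus strand (chr19:52690497-52690746), ZNF555 on the plus strand (chr19:2841225-2841474) and ZNF347 on the minus strand (chr19:53159054-53159303).
ZNF83: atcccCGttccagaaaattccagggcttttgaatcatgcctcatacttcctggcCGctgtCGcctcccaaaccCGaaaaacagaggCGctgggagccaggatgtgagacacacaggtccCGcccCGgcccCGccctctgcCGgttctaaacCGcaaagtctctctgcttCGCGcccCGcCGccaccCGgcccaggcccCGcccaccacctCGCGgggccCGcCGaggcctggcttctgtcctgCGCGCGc
ZNF555: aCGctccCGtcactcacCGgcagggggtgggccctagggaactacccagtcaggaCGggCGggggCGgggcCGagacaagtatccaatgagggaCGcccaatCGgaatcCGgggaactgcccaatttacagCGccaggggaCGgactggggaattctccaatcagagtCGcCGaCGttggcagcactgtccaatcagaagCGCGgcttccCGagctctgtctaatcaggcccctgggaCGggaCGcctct
ZNF347: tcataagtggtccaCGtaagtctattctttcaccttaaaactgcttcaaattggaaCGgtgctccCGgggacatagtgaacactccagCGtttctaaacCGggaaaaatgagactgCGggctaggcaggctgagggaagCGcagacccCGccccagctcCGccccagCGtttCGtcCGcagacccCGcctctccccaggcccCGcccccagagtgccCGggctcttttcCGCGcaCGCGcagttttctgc
The second set holds the 3 longest genes, under the same conditions, with no peak in the gene or within 10 kb. ZNF91, which encodes a repressor of SVA retrotransposons, lies on the minus strand (chr19:23395472-23395721). ZNF565 lies on the minus strand (chr19:36245929-36246178) and ZNF431 on the plus strand (chr19:21141790-21142039).
ZNF91: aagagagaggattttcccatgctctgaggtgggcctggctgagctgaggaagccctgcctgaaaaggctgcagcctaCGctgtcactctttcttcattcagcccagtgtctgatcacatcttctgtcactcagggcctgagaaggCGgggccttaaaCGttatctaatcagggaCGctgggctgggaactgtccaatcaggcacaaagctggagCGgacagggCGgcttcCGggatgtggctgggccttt
ZNF565: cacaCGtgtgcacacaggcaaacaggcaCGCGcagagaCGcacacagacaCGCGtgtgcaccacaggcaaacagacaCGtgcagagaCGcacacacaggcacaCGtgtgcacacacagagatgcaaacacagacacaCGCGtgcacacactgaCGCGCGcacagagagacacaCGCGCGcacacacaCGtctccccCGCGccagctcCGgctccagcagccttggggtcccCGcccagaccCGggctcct
ZNF431: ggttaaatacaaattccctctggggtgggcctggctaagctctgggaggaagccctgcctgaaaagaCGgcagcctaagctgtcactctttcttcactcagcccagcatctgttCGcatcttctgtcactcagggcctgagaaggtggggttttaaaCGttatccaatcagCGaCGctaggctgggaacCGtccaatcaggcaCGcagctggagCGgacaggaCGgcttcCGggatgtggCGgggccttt
The windows of ZNF83, ZNF555 and ZNF347 held 23, 20 and 19 CG dinucleotides. Those of ZNF91 and ZNF431 held 7 and 11, and that of ZNF565 held 23, so a window rich in CG was also found at a gene without a peak.

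LDB1 peaks were fewer at the ZNF genes than at the other protein-coding genes of the chromosome. A peak midpoint lay within 1 kb of either end of 71 of the 246 ZNF genes, 28.9% (23.3 to 35.0%). It lay there in 562 of the 1205 other genes, 46.6% (43.8 to 49.5%), and in 37.6% of all protein-coding genes. In the gene or within 10 kb of it, 128 ZNF genes had a peak, 52.0% (45.6 to 58.4%). For the other genes of the chromosome this was 1025, 85.1% (82.9 to 87.0%), and for all protein-coding genes 70.1%. The median ZNF gene had 1 such peak, and the median of the other chromosome 19 genes was 3.

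Gene length differed between the groups, with medians of 23.2 kb for ZNF genes and 12.8 kb for the others. The genes were therefore compared in 5 classes of length with about equal numbers of ZNF genes. The other genes, weighted to the lengths of the ZNF genes, had a peak at an end in 46.3% and within 10 kb in 85.5%. The differences, ZNF genes minus others, were -17.42 and -33.45 percentage points. Within 10 kb the ZNF genes were lower in all 5 classes, and in each the 2 intervals did not overlap. At 13.1 to 19.6 kb, for example, 23 of 49 ZNF genes had such a peak, 46.9% (32.5 to 61.7%), and 152 of 184 others, 82.6% (76.3 to 87.8%). At gene ends the ZNF genes were also lower in all 5 classes but the intervals overlapped in each. The widest gap was at 19.7 to 27.8 kb, with 30% (17.9 to 44.6%) of ZNF genes and 53.3% (44.6 to 62.0%) of others. With 1 library no test of these differences was possible.

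**Figure D1:**
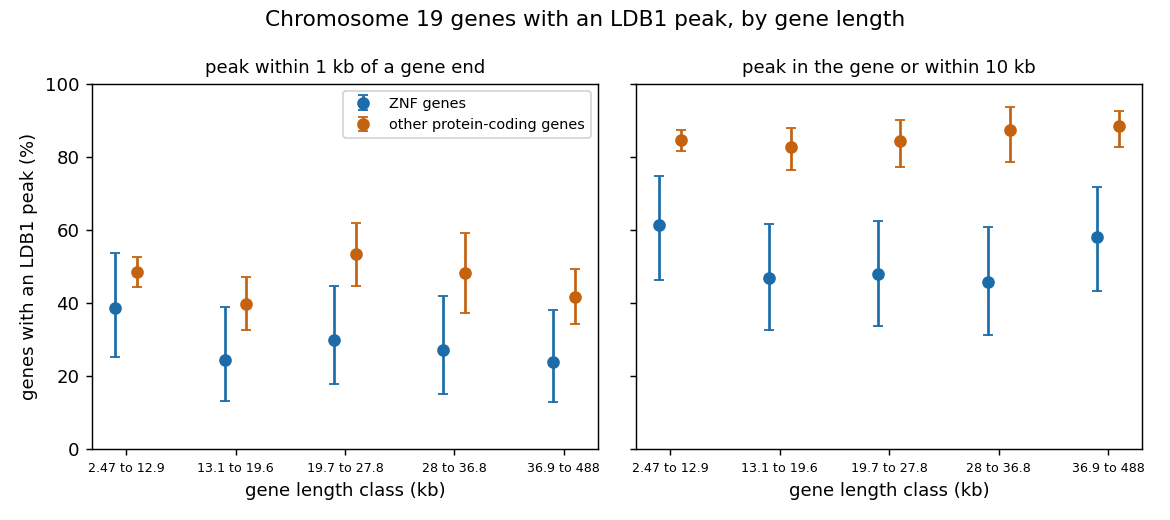
Share of chromosome 19 genes with an LDB1 peak (vertical axis, %) in 5 classes of gene length (horizontal axis, kb), within 1 kb of a gene end (left) and in the gene or within 10 kb (right). Points are shares and bars exact 95% intervals for ZNF genes (blue) and other protein-coding genes (orange). In the right panel the ZNF genes sit between 45.8 and 61.2% and the others between 82.6 and 88.3%.

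The size of both differences depended on the distance and on which genes were compared. Within 500 bp of a gene end the difference was -8.06 points and within 2500 bp it was -29.94 points. When only genes between the first and last ZNF gene of a cluster (defined below) were compared, it was -7.145 points at gene ends and -17.8 points within 10 kb. Within 50 kb it was -14.03 points. Without the outer 5 Mb of the chromosome the gene-end difference was -26.2 points.

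The shares of ZNF and other genes with a peak had overlapping intervals at the 5′ end, and at the 3′ end the share of ZNF genes was lower. Strand was given for 216 ZNF genes and 969 others. A peak lay within 1 kb of the 5′ end of 57 of the 216, 26.4% (20.6 to 32.8%). It did so in 32.1% (29.2 to 35.1%) of the others and 31.9% of the 15812 protein-coding genes with a strand. At the 3′ end the counts were 12 of 216, 5.56% (2.90 to 9.50%). There the share was 27.6% (24.8 to 30.5%) of the others and 10.5% of the 15812. Weighted to like length, ZNF genes minus others gave -5.079 points at the 5′ end and -21.24 points at the 3′ end. At the 5′ end the sign turned with the distance, from 1.49 points within 500 bp to -14.66 points within 2500 bp, and it was -12.9 points without the outer 5 Mb.

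Around the 5′ end, the peak densities of ZNF and other genes had overlapping intervals in the central 1 kb, and farther out that of the ZNF genes was lower in each bin. In the 500 bp after the 5′ end there were 30.6 peaks per kb per 100 ZNF genes (21.0 to 42.9), and 26.4 (22.04 to 31.4) at the other genes. In the 500 bp before it the values were 17.6 (10.6 to 27.5) and 18.6 (14.9 to 22.8). From 500 bp to 1 kb into the gene they were 2.78 (0.573 to 8.12) at ZNF genes and 14.4 (11.3 to 18.2) at others. From 2 to 5 kb into the gene they were 2.01 (1.07 to 3.43) and 10.6 (9.41 to 11.8), and from 2 to 5 kb upstream 2.31 (1.30 to 3.82) and 7.26 (6.31 to 8.31). A peak near the 5′ ends of 2 genes was counted for both, and the intervals do not allow for this. Of the 57 such counts within 1 kb of a ZNF 5′ end, 52 (91.2%, 80.7 to 97.1%) lay within 500 bp. At the other genes 218 of 328 did (66.5%, 61.1 to 71.6%).

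**Figure D2:**
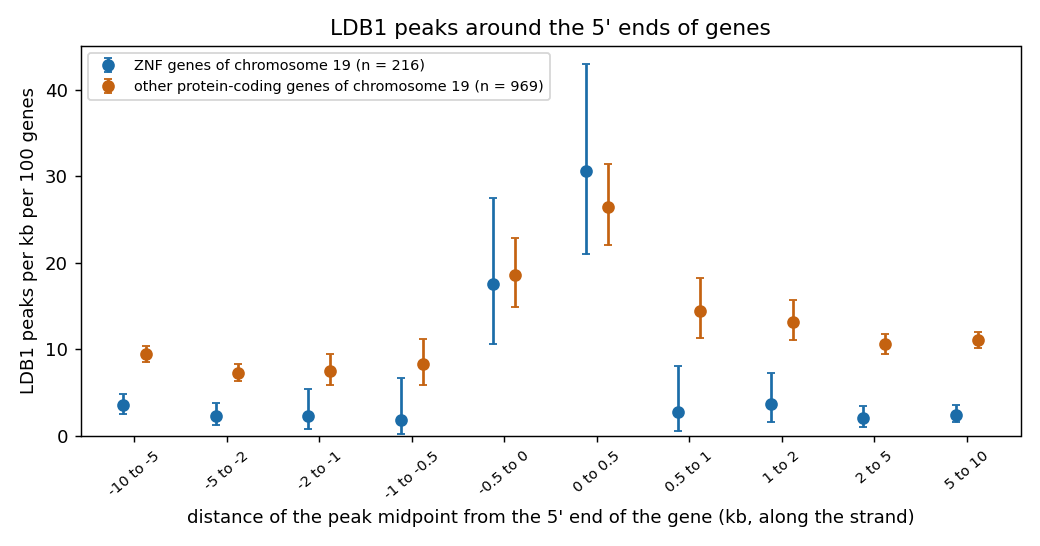
LDB1 peaks per kb per 100 genes (vertical axis) by distance of the peak midpoint from the 5′ end of the gene along its strand (horizontal axis, kb, bins of unequal width). Points are ZNF genes (blue) and other protein-coding genes (orange) of chromosome 19, with exact Poisson 95% intervals. A peak near several genes counts for each, which the intervals do not allow for. Both rise in the central bins, to 30.6 and 26.4 in the first 500 bp of the gene, while from 0.5 kb outwards the ZNF genes stay at 1.85 to 3.70 and the others at 7.26 to 14.4.

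Some ZNF genes had a single peak, and it lay at the 5′ end. Among the 113 ZNF genes with a strand and a peak within 10 kb, 25 (22.1%, 14.9 to 30.9%) had 1 peak and it lay at the 5′ end. Among the 836 other genes this was so for 23 (2.75%, 1.75 to 4.10%). Only a gene with exactly 1 peak within 10 kb can count here. The median number of such peaks was 1 for all ZNF genes and 3 for all other genes of the chromosome. The share was not computed among single-peak genes alone or over all protein-coding genes. ZNF208 is such a gene, 71129 bp long with 1 peak of 445 bp at its 5′ end. ZNF93, which encodes a repressor of LINE-1 retrotransposons, had 1 peak of 538 bp there. ZNF468 had 1 of 1208 bp and ZNF132 had 1 of 1472 bp. ZNF208 and ZNF93 were chosen after their values were seen. Inside the gene bodies a peak was counted once for each gene that holds it, which the intervals do not allow for. Of 139 such counts in ZNF genes, 50 (36.0%, 28.0 to 44.5%) lay in the first of 5 equal parts from the 5′ end. The last part, where the exon for the zinc fingers usually lies, held 21 (15.1%, 9.60 to 22.2%). In the other genes the first part held 20.5% (18.8 to 22.3%) and the last 26.0% (24.1 to 27.9%) of 2108 counts.

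The other protein-coding genes of chromosome 19 are closely spaced, so that a 3′ end can lie beside another gene's end. The others, here, above and below, include read-through ZNF genes with a hyphen and 19 genes with related symbols that are listed below. No other protein-coding gene end lay within 2 kb of the 3′ end for 194 of the 216 ZNF genes and for 626 of the 969 others. In these a peak lay at the 3′ end of 10 ZNF genes, 5.15% (2.50 to 9.28%), and of 136 others, 21.7% (18.5 to 25.2%).

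Among the ZNF genes, the share with a peak at the start was highest where the promoter was richest in CG dinucleotides. The window here was the 300 bases from 250 before to 50 after the listed start nearest the 5′ end, and a peak counted within 1 kb of that start. Of 216 ZNF genes 59 had one, 27.3% (21.5 to 33.8%), against 32.6% of the 969 others and 32.7% of all protein-coding genes with a listed start. With 23 or more CG dinucleotides 31 of 80 ZNF genes had a peak, 38.8% (28.1 to 50.3%). With 17 to 22 it was 14 of 64, 21.9% (12.5 to 34.0%), and with 16 or fewer 14 of 72, 19.4% (11.1 to 30.5%). The intervals of the richest and poorest classes overlapped. In the other genes the shares were 34.9% (30.5 to 39.5%), 28.8% (20.8 to 37.9%) and 31.2% (26.6 to 36.0%). The median was 23 CG dinucleotides in ZNF genes with a peak at the start and 19 in those without, and the GC content was 62.3 and 59%.

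**Figure D3:**
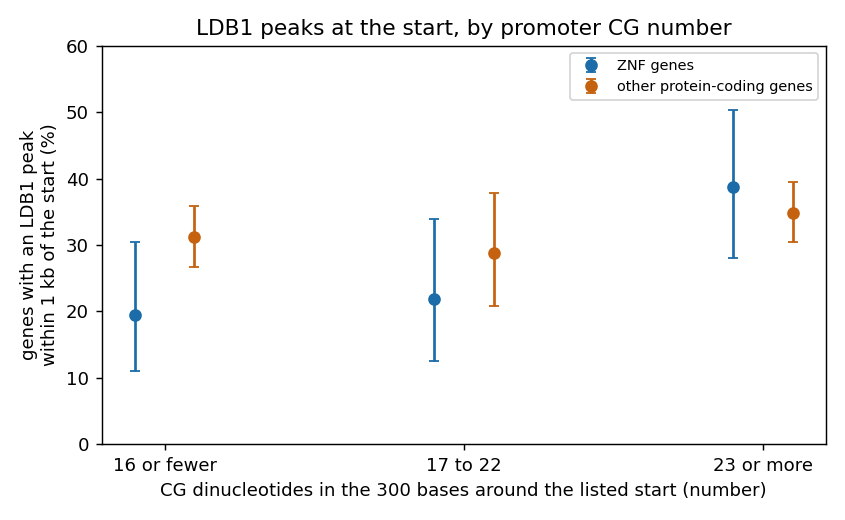
Share of genes with an LDB1 peak within 1 kb of the listed start (vertical axis, %) by the number of CG dinucleotides in the 300 bases around it (horizontal axis, 3 classes), for ZNF genes (blue) and other protein-coding genes (orange) of chromosome 19. Bars are exact 95% intervals. The ZNF genes go from 19.4% in the poorest to 38.8% in the richest class, and the others lie between 28.8 and 34.9%.

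Short sequences known to be read by partners of LDB1 were counted in the same windows on both strands. GATAA, the core of the GATA factor site, was in 16 of the 59 ZNF promoters with a peak, 27.1% (16.4 to 40.3%), and in 36 of the 157 without, 22.9% (16.6 to 30.3%). It was in 24.1% (18.5 to 30.3%) of all ZNF promoters, 16.7% (14.4 to 19.2%) of the others on the chromosome and 18.3% of all 15812 promoters. Most promoters of the cluster from ZNF101 to ZNF254 (described below) held GATAA. Among them were ZNF93, ZNF737, ZNF708, ZNF429, ZNF43, ZNF208 and ZNF726, its genes with a peak at the start. Neighbours in a cluster can be duplicates, which the intervals do not allow for. The share without that cluster was not computed. CANNTG, the E-box of basic helix-loop-helix factors, was in 24 of 59 with a peak, 40.7% (28.1 to 54.3%), and in 97 of 157 without, 61.8% (53.7 to 69.4%), next to 64.6% of all promoters. CAGCTG, 1 form of CANNTG, was in 16.9% and 17.8%, and in 17.5% of all promoters. The windows of ZNF91 and ZNF431 printed above hold TTATC, which is GATAA read on the other strand. CANNTG is in those of ZNF565 and ZNF431, and the windows of ZNF83, ZNF555 and ZNF347 hold neither motif.

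The ZNF genes fell into 10 clusters along the chromosome, when neighbours up to 500 kb apart were joined and runs of at least 5 kept. The clusters took in 232 of the 246 genes and spanned 14.4 Mb. They held 376 of the 3447 peaks of the chromosome, 26.2 per Mb, and the rest of the chromosome between its first and last gene held 69.5 per Mb. Density on the other chromosomes was not computed, so these values compare stretches of chromosome 19 only. The 90 other protein-coding genes inside the clusters had a peak within 10 kb in 62.2% (51.4 to 72.2%), and the 1115 outside in 86.9% (84.8 to 88.8%). At an end the shares were 32.2% (22.7 to 42.9%) and 47.8% (44.8 to 50.8%). The ZNF genes inside had 51.3% (44.7 to 57.9%) within 10 kb and 29.3% (23.5 to 35.6%) at an end, so their intervals overlap those of the genes among them. The 90 other genes include zinc finger genes with related symbols, among them ZFP14, ZFP82 and ZFP30. These shares are not matched for length. Weighted to like length, ZNF genes minus others inside clusters gave -17.8 points within 10 kb and -7.145 points at an end.

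**Figure D4:**
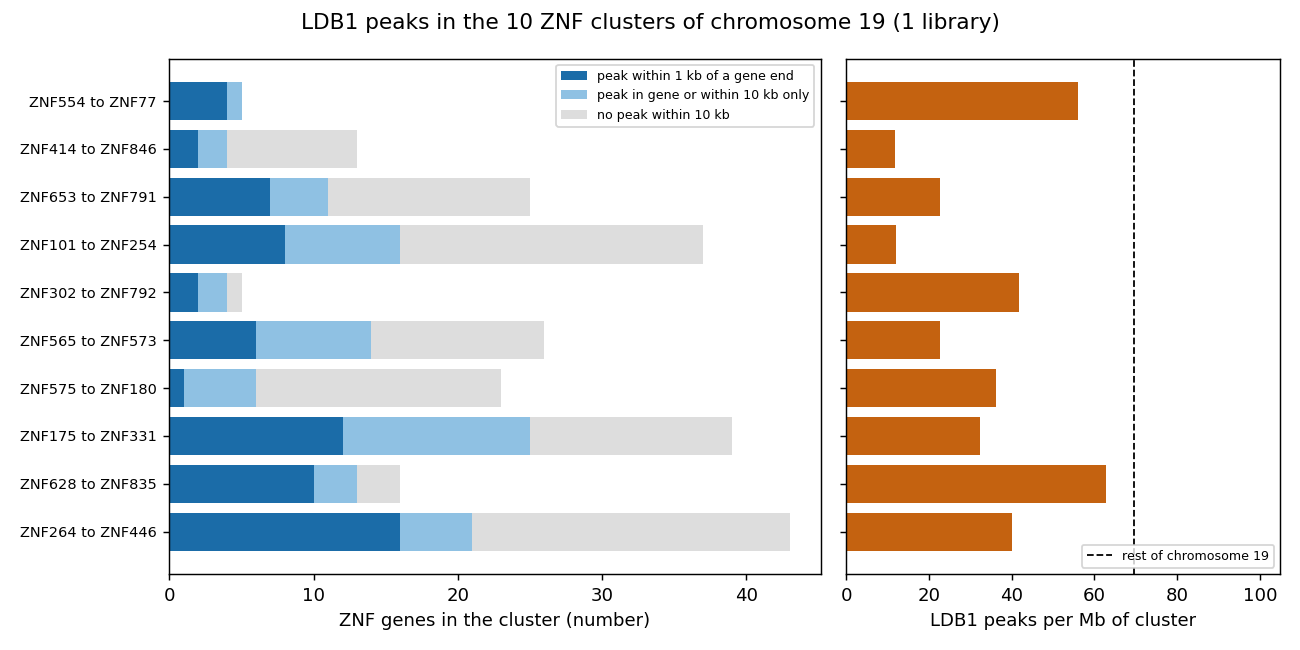
Left, number of ZNF genes in each of the 10 clusters (rows, named by first and last gene in the order along the chromosome) with a peak at a gene end, with one in the gene or within 10 kb only, and with none. Right, LDB1 peaks per Mb of each cluster, with the rest of chromosome 19 as a dashed line at 69.5. All 10 clusters lie under the line, from 11.7 to 62.8 peaks per Mb.

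Of the 10 clusters, those from ZNF628 to ZNF835 and from ZNF554 to ZNF77 held the most peaks per Mb. The latter, the first along the chromosome (19: 2819868 to 2944971), had 55.9 peaks per Mb, and all 5 of its genes had a peak within 10 kb. ZNF555 had a peak of 1316 bp and ZNF77 one of 1215 bp at the 5′ end, and ZNF554 had 5 peaks, the widest of 1383 bp. The cluster from ZNF628 to ZNF835 (55476617 to 56671757) had 62.8 peaks per Mb, and 13 of its 16 genes had a peak within 10 kb, 10 of them at an end. It held the 3 highest median values of the 10 clusters at once: the GC content of the promoters was 68.2%, their CG number 29.5 and the peak width 680 bp. Its first 9 genes, ZNF628 to ZNF444, all had from 2 to 14 peaks, and of the last 7, ZNF582 to ZNF835, 4 had 1 peak and 3 had none.

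Within that cluster ZNF787 had the most peaks of any of the 246 genes, 14, the widest of 2368 bp inside the gene (56098181 to 56100548). ZNF444 and ZNF628 had 8 each. The widest peak counted for any ZNF gene, 2741 bp (55614166 to 55616906), had its midpoint inside ZNF865 and within 10 kb of ZNF784, so it is counted for both. ZNF579 had a peak of 2181 bp inside the gene. The widest peak of ZNF628, 1804 bp, lay outside the gene within 1 kb of NAT14.

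The last cluster, ZNF264 to ZNF446 (57191500 to 58489533), was divided. It held 43 genes, 40.1 peaks per Mb, and 21 genes with a peak within 10 kb. Its last 7 genes, ZNF497 to ZNF446, all had a peak and had up to 6 each, while of the 36 before them 14 did. ZNF584 had the widest peak at an end of any ZNF gene, 2057 bp (58400161 to 58402217), with its midpoint 0.369 kb from the 5′ end and outside the gene. ZNF837 had 6 peaks, the widest of 2438 bp at -5.09 kb from its 5′ end, and ZNF497, ZNF324 and ZNF446 also had 6. A peak of 671 bp (58466641 to 58467311) was counted for ZNF324B, ZNF324 and ZNF446. In the same cluster 8 neighbours, from ZNF549 to ZNF154, had no peak within 10 kb. ZNF274, which encodes a protein that brings SETDB1 to the 3′ exons of other ZNF genes, had 3 peaks, the widest of 795 bp at its 5′ end; it was chosen after its values were seen. The 2 divisions were also drawn after the values were seen.

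The cluster from ZNF575 to ZNF180 (43530835 to 44500522) had peaks, but few of them at its ZNF genes. Of 35 peaks 8 lay within 10 kb of a ZNF gene and 24 only within 10 kb of another protein-coding gene. All 10 other genes had a peak within 10 kb, and 6 of the 23 ZNF genes did (26.1%, 10.2 to 48.4%). ZNF428 alone had a peak at an end, and it had 1 at both ends. The gap between ZNF428 and ZNF283 held 24 of the 35 peaks. The next 8 genes, ZNF283 to ZNF223, had none within 10 kb. ZNF284 and ZNF224 shared a single peak of 365 bp, and ZNF285 had 1 of 945 bp.

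The longest cluster lies next to the centromere and had few peaks per Mb. It ran from ZNF101 to ZNF254 (19668153 to 24129968) over 4.46 Mb, with 37 ZNF genes and 11.9 peaks per Mb. A peak lay within 10 kb of 16 genes and at an end of 8, and the widest peak counted for any of them was 793 bp, at ZNF14. ZNF254, ZNF91, ZNF676, ZNF431 and ZNF723, from 46450 to 96520 bp long, had no peak within 10 kb. Its longest runs without a peak were of 3 genes, the first of them ZNF682 to ZNF486. Its promoters had a median of 10 CG dinucleotides, the fewest of the 10 clusters. A peak nevertheless lay at the 5′ end of 7 of its 29 genes with a strand. For all ZNF genes with a strand this was 57 of 216 (26.4%). Of its 53 peaks 35 lay within 10 kb of no protein-coding gene.

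The cluster from ZNF565 to ZNF573 (36182060 to 37779586) held 26 ZNF genes, 14 with a peak within 10 kb and 6 at an end. It had 36 peaks, 22.5 per Mb, but 16 of them stood in 34.7 kb (37268866 to 37303537) between ZNF383 and ZNF875. Those were up to 3424 bp wide. ZNF875, at 9.63 kb from the nearest peak midpoint of the group, was the only protein-coding gene within 10 kb of any of them. Without them the cluster had 12.5 peaks per Mb. ZNF565, ZNF146, ZNF566 and ZNF260, its first 4 genes, had no peak within 10 kb, nor had ZNF567. ZNF420 had the widest peak counted for a gene there, 786 bp.

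The remaining clusters are given in their order along the chromosome. From ZNF414 to ZNF846 (8509678 to 9786160) there were 11.7 peaks per Mb, and 4 of 13 ZNF genes had a peak within 10 kb. ZNF414 had 2, the widest of 1387 bp. Its 5 neighbours from ZNF558 to ZNF177 had none, nor had ZNF560. From ZNF653 to ZNF791 (11483429 to 12633834) 11 of 25 had a peak, with 5 at ZNF653, the widest of 1139 bp, and none at the 6 from ZNF627 to ZNF439. In the small cluster from ZNF302 to ZNF792 (34675979 to 34964229) 4 of 5 had a peak, ZNF302 with 2, the widest of 1336 bp, and ZNF599, 49529 bp long, had none.

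The cluster from ZNF175 to ZNF331 (51571283 to 53580269) had 32.4 peaks per Mb, and 25 of its 39 ZNF genes had a peak within 10 kb, 12 of them at an end. It held 4 of the 5′ ends with a peak of 1 kb or more: ZNF83 with 1601 bp, ZNF347 with 1287 bp, ZNF468 with 1208 bp and ZNF816 with 1111 bp. The ZNF347 peak also lay within 10 kb of ZNF665, which had 6 peaks. ZNF577, the longest of these genes at 83510 bp, had 1 peak of 1934 bp, which lay outside it within 1 kb of FPR3. The 5 genes from ZNF841 to ZNF480 had none.

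**Figure D5:**
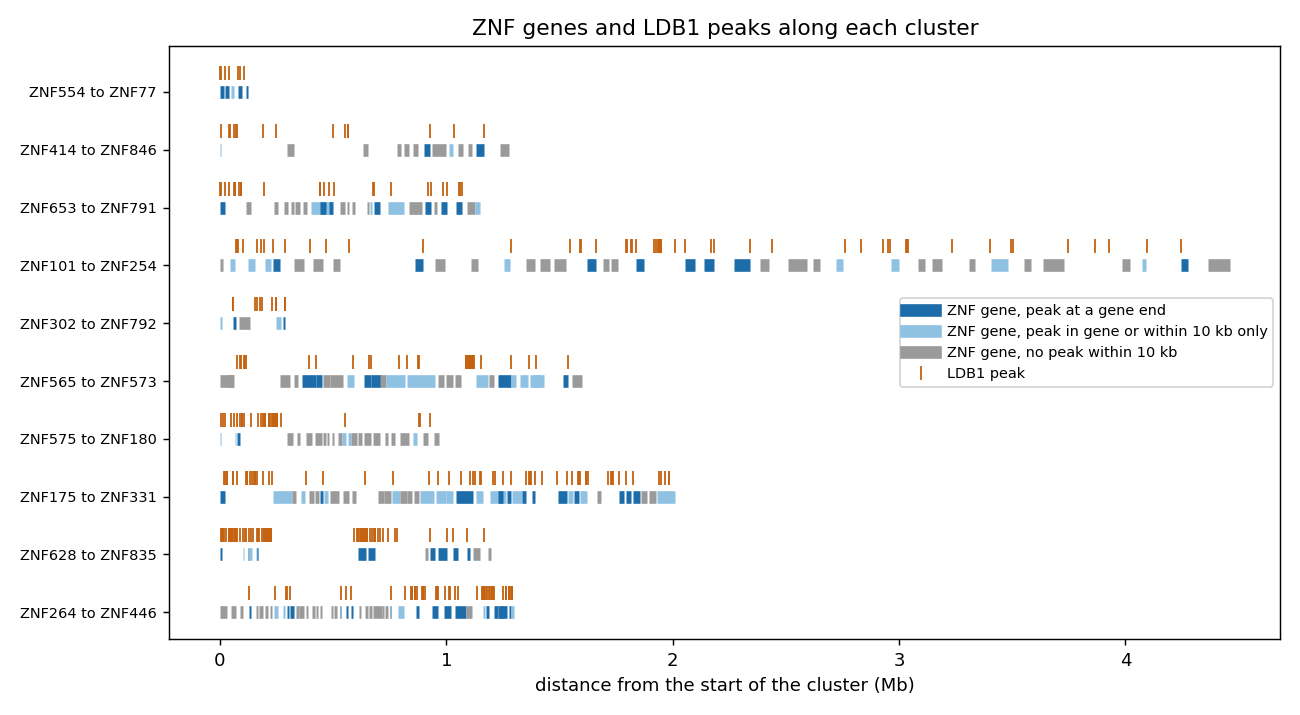
The 10 clusters (rows) drawn from their first gene (horizontal axis, distance in Mb). Thick bars are ZNF genes, dark blue with a peak at a gene end, light blue with one in the gene or within 10 kb only and grey with none, and orange ticks are LDB1 peaks. Grey runs of neighbours stand beside stretches dense in peaks, such as the 24 peaks before ZNF283 in the row from ZNF575 to ZNF180 and the 16 between ZNF383 and ZNF875 in the row from ZNF565 to ZNF573.

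Outside the clusters, 9 of 14 ZNF genes had a peak within 10 kb. ZNF536, a gene of 487995 bp that encodes a repressor of neuronal differentiation, had 12, the widest of 1190 bp lying 114.1 kb into the gene. ZNF296 had 5, with 2 of them at its 3′ end.

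The nearest peak was more often over 10 kb away for ZNF genes than for the other genes of the chromosome. Its midpoint lay over 10 kb away for 118 ZNF genes (48.0%) and for 14.9% of the others. Over 50 kb it was 47 ZNF genes (19.1%) and 5.14% of the others. Over 100 kb the shares were 4.47 and 2.9%, and over 200 kb 0.41 and 1.58%. From 50 kb on, the shares were not computed over all protein-coding genes. ZNF784 and ZNF799 lay just inside the 1 kb limit, at 0.792 and 0.956 kb from the end, and ZNF850 and ZNF446 just outside, at 1.12 and 1.18 kb. For the 10 kb limit these were ZNF224 and ZNF285 at 9.63 and 9.65 kb, and ZNF560 and ZNF229 at 10.2 and 10.5 kb. Neighbours shared peaks: of the 253 peaks counted within 10 kb of a ZNF gene, 49 counted for 2 genes and 1 for 3.

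Those 253 peaks were 326 to 2741 bp wide, with the middle of the distribution at 566 bp and its quartiles at 444 and 785 bp. The other 3194 peaks of the chromosome had a median of 604 bp. A width of 1 kb or more was found in 39 of the 253, 15.4% (11.2 to 20.5%), and in 20.1% (18.7 to 21.5%) of the others. At ends of ZNF genes 10 of 73 peaks were that wide.

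Numbered ZNF genes of other chromosomes were counted in the same way. Of 263 such genes 181 had a peak within 10 kb, 68.8% (62.8 to 74.4%), beside 70.1% of all protein-coding genes. At an end 89 had one, 33.8% (28.1 to 39.9%), beside 37.6% of all protein-coding genes. Their share at the 3′ end, 5.14% (2.59 to 9.01%), was near the 5.56% of the chromosome 19 ZNF genes. Over all protein-coding genes with a strand it was 10.5%. The widest peaks were counted for ZNF316 (6089 bp), for the neighbours ZNF124 and ZNF669 (5703 bp each) and for ZNF273 (2746 bp). Among 19 genes of chromosome 19 with related symbols (ZFP, ZSCAN, ZBTB, ZIM, ZIK1 and PEG3), 12 had a peak within 10 kb and 6 at an end. These were 63.2% (38.4 to 83.7%) and 31.6% (12.6 to 56.5%). The widest were counted for ZFP36, which encodes an RNA-binding protein with another kind of zinc finger (2666 bp), for the overlapping imprinted genes PEG3 and ZIM2 (2003 bp each) and for ZSCAN18 (1681 bp).

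Genes of the corepressor that KRAB zinc finger proteins use were near the background. Of 15 such genes 10 had a peak within 10 kb, 66.7% (38.4 to 88.2%), and 4 at an end, 26.7% (7.79 to 55.1%), beside the 70.1 and 37.6% of all protein-coding genes. TRIM28, which lies on chromosome 19 beyond the last ZNF cluster (58544064 to 58550715), had 2 peaks, 1 of 1725 bp at a gene end and 1 of 5152 bp within 10 kb. SETDB1, the methyltransferase gene, had 2, the widest of 1854 bp. The HP1 genes CBX3, CBX1 and CBX5 had 3, 2 and 2, with the widest at 1146, 509 and 878 bp. DNMT1, the maintenance DNA methyltransferase gene, had 3, and ATRX, a chromatin remodeller gene, had 3. UHRF1 and PPHLN1 had 2 each and MORC2 had 1. No peak lay within 10 kb of TASOR, MPHOSPH8, ATF7IP, DAXX or SMARCAD1.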

How the data were processed

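The deposited LDB1 list gave chromosome, start, end and width in bp of 53742 peaks, per the file headers, and the 52765 on chromosomes 1 to 22 and X were used. Positions count from 1. The submitters' processing notes name hg38, Bowtie2 2.4.1 and MACS2 2.0.10. Parameters, any use of the IgG library as caller control and the treatment of reads that align to several places are not stated in these sources. Peak heights, scores and read numbers were not used, so the depth is unknown. Genes, strand and promoters came from RefSeq tables (GRCh38.p14), with a strand and promoter for 216 of the 246 ZNF genes. A peak was placed by its midpoint. Other genes of chromosome 19 were weighted to the ZNF genes' 5 length classes. Shares carry Clopper-Pearson intervals (scipy 1.17.1). Counting was tested on simulated data. The planned protein sequences were not used here.

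The genes and lists were chosen with earlier results of these data known. Genes named were the 10 with the widest peaks, the 10 with the most, the 10 longest without a peak, those with a gene-end peak of 1 kb or wider, those nearest the distance limits, the widest and the longest run without a peak per cluster, all corepressor genes but 1, which is not reported here, and the 4 widest of the other lists. Results by strand were added after seeing the data.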

Additional observations from a re-analysis of the deposited data

How the results depend on the processing

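No paired analysis was possible because there was 1 library per antibody, and no replicate could be left out. The peak list has no depth, so an absent peak says only that none was listed. With wider peaks only, the share of ZNF genes with a peak fell: at gene ends to 15.04% (widest 50%) and 6.10% (widest 25%), within 10 kb to 34.15% and 19.11%. It was 36.18% within 2500 bp of an end, 36.59% in the gene body and 80.89% within 50 kb.

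The differences from like-length genes (ZNF genes minus others, percentage points) stayed below 0 at gene ends, within 10 kb and at the 3′ end under every alternative run. At gene ends they were -23.78 by any overlap, -8.06 within 500 bp, -29.94 within 2500 bp, -26.2 without the outer 5 Mb and -7.145 inside clusters. Within 10 kb they were -41.89 and -40.93 with the widest 50% and 25% of peaks, -14.03 at 50 kb, -40.13 without the outer 5 Mb and -17.8 inside clusters. At the 5′ end the difference was 1.49 within 500 bp, -14.66 within 2500 bp and -12.9 without the outer 5 Mb. At the 3′ end it was -14.49 and -6.55 with the widest 50% and 25%, -27.61 by any overlap, -12.07 within 500 bp, -36.45 within 2500 bp, -23.97 without the outer 5 Mb and -13.0 inside clusters. The cause of these shifts was not tested. Matching on gene density within 250 kb in place of length, chosen after seeing the data, gave -15.61 at gene ends and -29.99 within 10 kb, and matching on promoter CG number gave -6.59 at the 5′ end. The number of clusters was 12 with a gap of 250 kb and 9 with 1 Mb. Peaks per Mb inside clusters were 31.11 with 1 Mb and 13.85 with the widest 50% of peaks.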

Other observations

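Inside the ZNF clusters some peaks lay far from any protein-coding gene. In the cluster from ZNF101 to ZNF254, 13 of 35 such peaks were within 10 kb of a pseudogene, 16 within 10 kb of a long non-coding RNA gene only and 6 near no listed gene. In the cluster from ZNF565 to ZNF573, 10 of 21 were near a long non-coding RNA gene and 11 near none. The repeat content of these stretches was not analysed here. A further 34 peaks were listed on alternate contigs of chromosome 19 and are in none of the counts.

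Since many ZNF genes are duplicates, the likeness between their promoters was counted. Of the 216 ZNF promoter windows, 51 shared at least 1 word of 30 bases with the window of another ZNF gene, on either strand, and the highest share of a window's words was 16.2%, between ZNF587B and ZNF814. A peak lay at the start of 14 of these 51, 27.5% (15.9 to 41.7%), and of 45 of the 165 without a shared word, 27.3% (20.6 to 34.7%). Likeness outside these windows was not tested. A start of another gene on the opposite strand lay up to 1 kb upstream of 41 ZNF starts. Of these 9 had a peak, 21.95% (10.6 to 37.6%), and of the other 175 ZNF starts 50 did, 28.6% (22.01 to 35.9%). The other genes of the chromosome went the same way. With such a neighbour 36 of 152 had a peak, 23.7% (17.2 to 31.2%), and without one 280 of 817, 34.3% (31.0 to 37.6%). These shares were not computed over all protein-coding genes.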
